A study of Mus musculus with 9 samples.

Results

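The proteasome subunit genes were taken from a table of gene expression in mouse male germ cells as the protein-coding rows whose symbol is Psma, Psmb, Psmc, Psmd, Psme or Psmf followed by a number. This gave 44 genes of the 54532 in the table, and 41 of the 44 averaged 1 FPKM or more across all 9 libraries and were tested. FPKM scales reads by sequencing depth and by a length, which here is the deposited gene length. That length is not the transcript length for every gene. Psmb3 has 2300 bases against 766 in its longest coding transcript, and Psmb5 has 899 against 899. Levels and shares set side by side across genes therefore carry a factor that differs between genes. Changes of the same gene between libraries do not. Psmb8, Psmb9 and Psmb11 fell below that mean and are given by their values alone.

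The proteasome is the barrel-shaped protease that degrades proteins tagged with ubiquitin. Its 20S core stacks outer rings of alpha subunits on inner rings of beta subunits, of which Psmb5, Psmb6 and Psmb7 carry the active sites, and a 19S cap of ATPases and other subunits recognises, unfolds and feeds in the substrate. Male germ cells are known for their own forms of the particle: Psma8 takes the place of Psma7 in the alpha ring from meiosis on, and the activator Psme4 (PA200) caps cores during spermiogenesis, while Psmb8, Psmb9 and Psmb10 replace the catalytic subunits in the immunoproteasome of immune cells and of cells exposed to interferon.

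The series holds 9 RNA-seq libraries of primary cells titled spermatocytes, labelled PD 35, with 3 libraries in each of 3 groups. In the ClpP cKO group Clpp, the peptidase of the mitochondrial matrix protease ClpXP, was deleted with Stra8-Cre. In the ClpX cKO group the same Cre deleted Clpx, its ATPase partner, and the Control group is labelled wild type. Stra8-Cre acts in germ cells from the late spermatogonial stage, so the somatic cells of the testis keep both genes. The labels name no method of isolation and do not say whether libraries of a group came from separate animals, and each p-value therefore reflects the spread among these libraries only, which may be technical.

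The libraries held 14334436 to 17021685 reads on genes. Clpp averaged 5.002 ± 1.24 FPKM in ClpP cKO and 9.06 ± 0.52 FPKM in Control libraries, and Clpx averaged 13.4 ± 2.14 FPKM in ClpX cKO and 56.5 ± 2.41 FPKM in Control libraries (SD, n = 3 each). Markers of meiotic cells were abundant, but so were those of spermatids, a stage after the spermatocytes named in the titles. Markers of somatic cells were also present. Elongating spermatid markers (15 genes) summed to 5099 to 6095 FPKM in ClpP cKO, 1924 to 2976 in ClpX cKO and 8871 to 18841 in Control libraries, and all 15 were called lower in both knockouts. Sertoli cell markers (16 genes, 15 tested) summed to 875 to 980 FPKM in ClpP cKO, 1103 to 1547 in ClpX cKO and 617 to 647 in Control libraries, and all 15 were called higher in both. No marker of either list was at 0 in all libraries. In such bulk samples fewer cells of a type and less RNA per cell cannot be told apart, and the part of cell composition in the values below was not tested. Control 3, at the low end of the spermatid sums of its group, and ClpX cKO 1, at the high end of its group, stood apart from the other libraries of their groups, and results that rest on them are given with and without them.

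The 44 genes did not move as a block. In ClpX cKO 17 of the 41 tested genes were called higher than Control and 6 lower, and in ClpP cKO 8 were higher and 6 lower (limma on log2(FPKM + 1), Benjamini-Hochberg adjusted p under 0.05 over all genes tested). The same 6 genes were lower in both knockouts: the inhibitor Psmf1, the alpha subunit Psma6, the activator Psme4, the ATPases Psmc2 and Psmc3, and the lid subunit Psmd8, of which Psmc3 and Psmd8 changed sign under quantile normalization. The 8 genes higher in ClpP cKO were all among the 17 higher in ClpX cKO, with the activator genes Psme1 and Psme2 in front. Both comparisons use the same 3 Control libraries.

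Set against the background, a smaller share of members than of all genes tested was lower with all libraries and the filter used. In ClpP cKO this turned round without the filter. The share that was higher lay below that of protein-coding genes in ClpP cKO and close to it in ClpX cKO. The comparison of higher shares depends on the scaling between libraries, and after quantile normalization or scaling to each library's own total the members' share lay above that of protein-coding genes in both knockouts. In ClpP cKO 19.5% of the tested members were higher and 14.6% lower, beside 20.7% and 24.0% of all 17266 genes tested and 25.8% and 23.5% of the 12827 protein-coding ones. In ClpX cKO 41.5% of the tested members were higher and 14.6% lower, beside 32.1% and 33.5% of all genes tested and 40.1% and 30.5% of protein-coding ones. The median change of the members was 0.04 in ClpP cKO and 0.17 in ClpX cKO on the log2 scale, beside 0.01 in ClpP cKO and -0.00 in ClpX cKO for all genes tested and 0.08 in ClpP cKO and 0.11 in ClpX cKO for protein-coding ones.

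**Figure D1:**
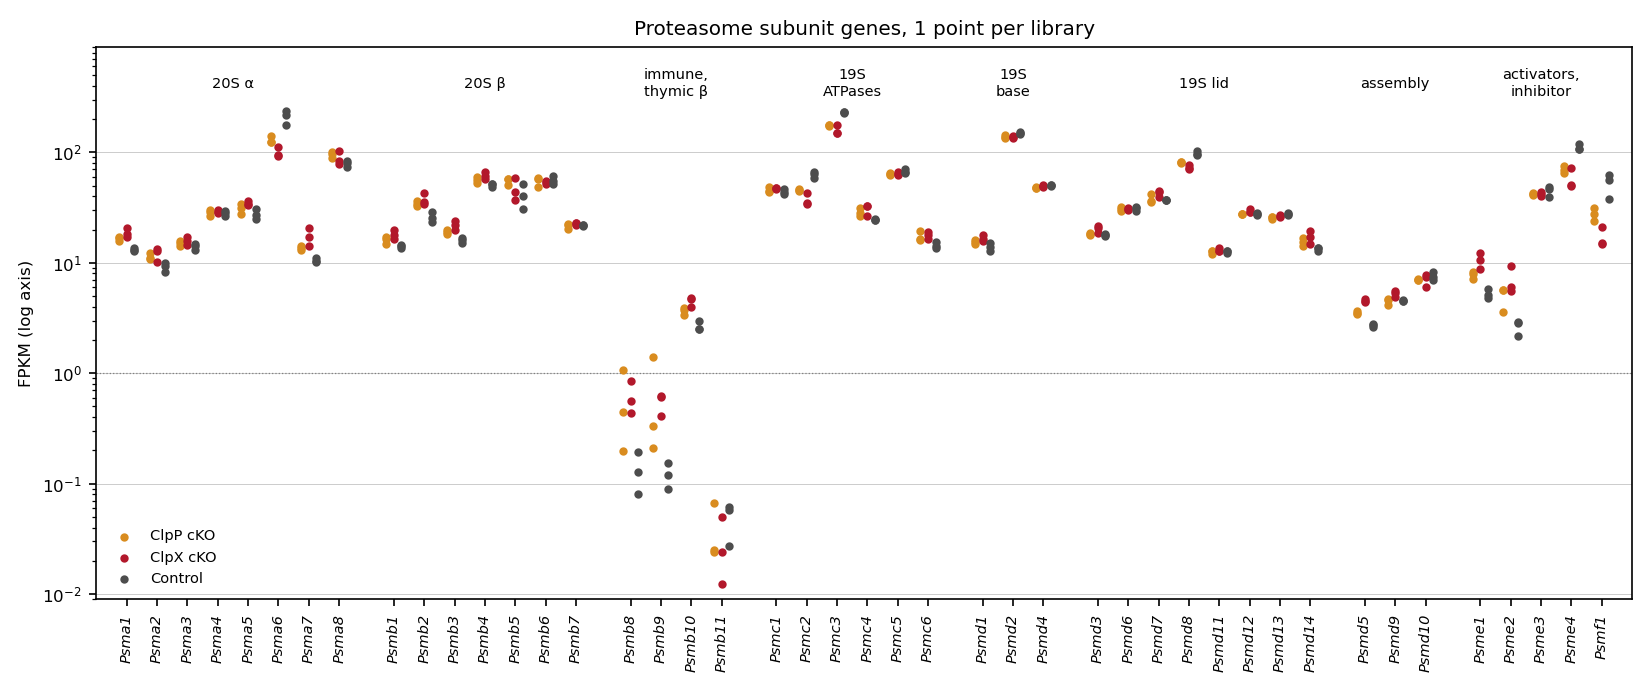
FPKM of the 44 proteasome subunit genes on a log axis, 1 point per library, ordered by role, with ClpP cKO, ClpX cKO and Control side by side for each gene and a dotted line at an FPKM of 1. Levels span from under 0.1 FPKM for Psmb11 to 232 FPKM for Psmc3 in Control libraries, and the Control points of Psma6, Psmc2, Psmc3, Psmd8, Psme4 and Psmf1 lie above those of both knockouts.

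Levels differed widely between the genes. In Control libraries the 6 highest were the ATPase Psmc3 at 232 FPKM, Psma6 at 211, the 19S scaffold Psmd2 at 149.6, Psme4 at 112, then the lid subunit Psmd8, and Psma8 at 79.1. Of the 43 pairs of neighbours in the Control order, 25 overlapped between libraries and 18 did not, and Psmc3 and Psma6 overlapped at the top. All 44 genes together took 0.539% to 0.561% of the summed FPKM in ClpP cKO, 0.533% to 0.564% in ClpX cKO and 0.489% to 0.517% in Control libraries. Counted as reads, where long transcripts weigh more, the order turned round, with 0.488% to 0.496% in ClpP cKO, 0.480% to 0.486% in ClpX cKO and 0.498% to 0.512% in Control libraries.

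In the alpha ring, Psma6 was the gene with the highest level. It was the only 1 of 8 called lower, beside 24.0% of all genes tested in ClpP cKO and 33.5% in ClpX cKO. It stood at 142, 125 and 125 FPKM in ClpP cKO, 112, 92.7 and 95.7 in ClpX cKO, and 218, 238 and 177 in Control libraries. No library of either knockout reached the lowest Control library, which was Control 3. The change was -0.68 ± 0.12 in ClpP cKO (log2, SE, limma adjusted p = 0.0086) and -1.06 ± 0.12 in ClpX cKO (limma adjusted p = 0.00045). After quantile normalization it was -0.24 in ClpP cKO, where the call was lost (limma adjusted p = 0.0527), and -0.48 in ClpX cKO. Psma6 lies on chromosome 12 at 55384222 to 55418454 (GRCm38, plus strand).

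Psma8 and Psma7 are alternatives for 1 position of the alpha ring. Psma8, the testis form, had 89.7, 102 and 96.2 FPKM in ClpP cKO, 83.4, 103 and 79.2 in ClpX cKO, and 73.9, 79.3 and 84.0 in Control libraries. The ClpP cKO libraries all lay above the Control ones, whereas the ClpX cKO libraries overlapped both other groups. Neither change was called: 0.27 ± 0.11 in ClpP cKO (limma adjusted p = 0.064) and 0.16 ± 0.11 in ClpX cKO (limma adjusted p = 0.23). The call depends on the scaling between libraries, since Psma8 was called higher in both knockouts after quantile normalization (0.65 in both) and after scaling to each library's own total (0.46 in ClpP cKO and 0.38 in ClpX cKO). It was called higher in ClpP cKO by limma voom on recovered reads as well (0.30, adjusted p = 0.037).

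Psma7, the form used in other tissues, had 13.6, 14.1 and 13.1 FPKM in ClpP cKO, 14.3, 17.2 and 20.7 in ClpX cKO, and 10.3, 10.98 and 10.1 in Control libraries. The 3 groups did not overlap, with ClpX cKO highest and Control lowest. Psma7 rose by 0.35 ± 0.12 in ClpP cKO (limma adjusted p = 0.04) and by 0.67 ± 0.12 in ClpX cKO (limma adjusted p = 0.0014). The call in ClpP cKO was lost in 8 of 20 other settings, 7 of which leave out 1 library: any of ClpP cKO 1, 2 or 3, ClpX cKO 2, or Control 1, 2 or 3 (highest adjusted p = 0.112).

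Within each library, Psma8 made up most of the pair, more so by FPKM than by reads. Counted as reads, Psma8 averaged 79.5% in ClpP cKO, 73.65% in ClpX cKO and 80.6% in Control libraries. Its share of Psma7 and Psma8 together was 86.9%, 87.8% and 88.0% of FPKM in ClpP cKO, 85.4%, 85.7% and 79.3% in ClpX cKO, and 87.7%, 87.8% and 89.3% in Control libraries. ClpX cKO lay below Control in all 3 libraries and furthest in ClpX cKO 3, while ClpP cKO overlapped Control. The difference from Control was -0.715 percentage points in ClpP cKO and -4.82 in ClpX cKO, and -2.73 in ClpX cKO without ClpX cKO 3. An exact two-sided permutation test of 3 libraries against 3 cannot go below p = 0.1, which the ClpX cKO difference reached (adjusted p = 0.164 over 18 tests of 6 shares in 3 comparisons).

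Of the remaining alpha genes, none of Psma1 to Psma5 fell, and their Control means lay between 9.19 FPKM for Psma2 and 28.1 FPKM for Psma4. Psma1 rose by 0.30 in ClpP cKO and 0.46 in ClpX cKO, with no overlap with Control, and its ClpP cKO call was lost without ClpP cKO 2, ClpP cKO 3, Control 1 or Control 2 (highest adjusted p = 0.0618). Psma2 rose by 0.36 in ClpX cKO, a call lost without ClpX cKO 2, ClpX cKO 3 or Control 3, and changed by 0.29 in ClpP cKO, not called. Psma5 rose by 0.33 in ClpX cKO, a call lost without ClpX cKO 2, Control 1 or Control 2, and changed by 0.16 in ClpP cKO, not called. Psma3 and Psma4 changed by at most 0.17 and were not called. Psma3 is uncertain, since the pseudogene Gm13835 is identical to it over 665 bases and stood at 45.9 FPKM, above Psma3 itself.

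The constitutive beta subunits had 4 of 7 genes called higher in ClpX cKO, 2 of 7 in ClpP cKO and none lower in either. All genes tested had 32.1% higher and 33.5% lower in ClpX cKO, and 20.7% and 24.0% in ClpP cKO. Psmb2, a structural subunit, had 32.6, 36.0 and 33.8 FPKM in ClpP cKO, 34.0, 35.8 and 42.4 in ClpX cKO, and 25.6, 23.5 and 29.1 in Control libraries. All 6 knockout libraries lay above the Control ones, and the change was 0.38 ± 0.10 in ClpP cKO (limma adjusted p = 0.02) and 0.51 ± 0.10 in ClpX cKO (limma adjusted p = 0.0029). The ClpP cKO call was lost without ClpP cKO 2, ClpP cKO 3, Control 1 or Control 2 (highest adjusted p = 0.0707). Psmb3, another structural subunit, rose by 0.42 in ClpX cKO and by 0.24 in ClpP cKO, where the call was lost in 9 of 20 other settings, 7 of which leave out 1 library (any but ClpX cKO 1 or ClpX cKO 3). Psmb1 rose by 0.33 and Psmb4 by 0.28 in ClpX cKO, and neither was called in ClpP cKO, where they changed by 0.18 and 0.15.

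None of the 3 catalytic genes of the constitutive core was called in either knockout on the deposited scale. After quantile normalization all 3 were called higher in ClpX cKO, Psmb5 by 0.59, Psmb6 by 0.37 and Psmb7 by 0.25, and Psmb5 in ClpP cKO by 0.73. Scaling to each library's own total gave calls for Psmb5 in ClpP cKO (0.64) and Psmb7 in ClpX cKO (0.26). Psmb5, which cleaves after hydrophobic residues, spread widely, with 50.1, 57.4 and 57.9 FPKM in ClpP cKO, 44.2, 58.7 and 37.0 in ClpX cKO, and 51.2, 40.3 and 30.6 in Control libraries. All 3 groups overlapped for this gene, and a pseudogene, Gm3375, shares 98.9% of 796 bases with it at 10.6 FPKM. Psmb6, which cleaves after acidic residues, changed by -0.03 in ClpP cKO and -0.05 in ClpX cKO. Psmb7, which cleaves after basic residues, changed by -0.01 in ClpP cKO and 0.05 in ClpX cKO.

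The immune forms of these 3 catalytic subunits were at low levels. Psmb10, the counterpart of Psmb7, had 3.70, 3.39 and 3.88 FPKM in ClpP cKO, 3.97, 4.76 and 4.67 in ClpX cKO, and 2.50, 2.99 and 2.54 in Control libraries. The groups did not overlap, with ClpX cKO highest and Control lowest. Psmb10 rose by 0.34 ± 0.10 in ClpP cKO (limma adjusted p = 0.021) and by 0.57 ± 0.10 in ClpX cKO (limma adjusted p = 0.0011). The call in ClpP cKO was lost when ClpP cKO 1, ClpP cKO 3, Control 1 or Control 3 was left out, with a highest adjusted p of 0.0742.

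Psmb8 and Psmb9 rested on few reads. Psmb8 had 51, 19 and 9 reads in ClpP cKO, 20, 41 and 26 in ClpX cKO, and 5, 8 and 3 in Control libraries. On the FPKM scale Psmb8 had 1.08, 0.446 and 0.198 in ClpP cKO, 0.434, 0.856 and 0.557 in ClpX cKO, and 0.128, 0.191 and 0.0804 in Control libraries. Psmb9 had 1.41, 0.211 and 0.329 FPKM in ClpP cKO, 0.406, 0.625 and 0.609 in ClpX cKO, and 0.153, 0.0895 and 0.120 in Control libraries. Every knockout library was above the highest Control library for both genes, and ClpP cKO 1 stood far above ClpP cKO 2 and 3 for both. Psmb9 overlaps Tap1 on the opposite strand by 212 bases, and the strand setting of the counting is not given in the sources used here. Tap1 had 2.68, 0.786 and 0.737 FPKM in ClpP cKO. Tap2, which does not overlap Psmb9, had 3.65, 0.476 and 0.605, so ClpP cKO 1 was the highest of its group for both. Whether reads of Tap1 enter the Psmb9 values was not tested. Psmb11, the form of the thymic cortex, had 1 to 5 reads in every library.

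As shares of their catalytic site, the immune forms were a minority throughout. Psmb10 made up 15.4%, 13.0% and 15.0% of Psmb7 and Psmb10 together in ClpP cKO, 15.3%, 17.1% and 16.98% in ClpX cKO, and 10.2%, 12.0% and 10.5% in Control libraries. Both knockouts lay above Control in all libraries. These and the shares that follow are of FPKM. Counted as reads, Psmb10 averaged 7.78% of this pair in ClpP cKO, 8.95% in ClpX cKO and 5.76% in Control libraries. Taken over the 3 sites, Psmb8 to Psmb10 made up 4.93%, 2.85% and 3.12% in ClpP cKO, 3.92%, 4.38% and 4.81% in ClpX cKO, and 2.02%, 2.73% and 2.57% in Control libraries. ClpP cKO 1 stood above the other libraries of its group, and the difference of ClpP cKO from Control was 1.19 percentage points with it and 0.545 without it. In ClpX cKO the difference was 1.93 percentage points. For both knockouts and both measures these differences reached the smallest exact permutation p of 0.1 that 3 against 3 allows, and neither passed adjustment (adjusted p = 0.164).

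Marker genes of immune cells and interferon-stimulated genes also summed higher in the knockouts. So did Sertoli cell markers, of which 15 of 15 tested were called higher in both. Of all genes tested, 20.7% were called higher in ClpP cKO and 32.1% in ClpX cKO. Immune cell markers (10 genes, 8 tested) summed to 53.0 to 76.6 FPKM in ClpP cKO, 80.3 to 97.9 in ClpX cKO and 41.7 to 48.0 in Control libraries, with 3 of 8 called higher in ClpP cKO and 8 of 8 in ClpX cKO. ClpP cKO 1, the library with the highest Psmb8 and Psmb9, had the highest immune sum of its group but the lowest interferon-stimulated sum. Interferon-stimulated genes (13 genes, 6 tested) summed to 32.8 to 37.8 FPKM in ClpP cKO, 40.2 to 59.9 in ClpX cKO and 24.3 to 30.7 in Control libraries, with 0 of 6 called higher in ClpP cKO by limma and 6 of 6 in ClpX cKO. In ClpP cKO 3 of these 6 passed at an unadjusted p under 0.05, and limma voom on recovered reads called 2. No gene of either list was at 0 in all libraries, and the part of these cells or of interferon in the subunit values was not tested.

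**Figure D2:**
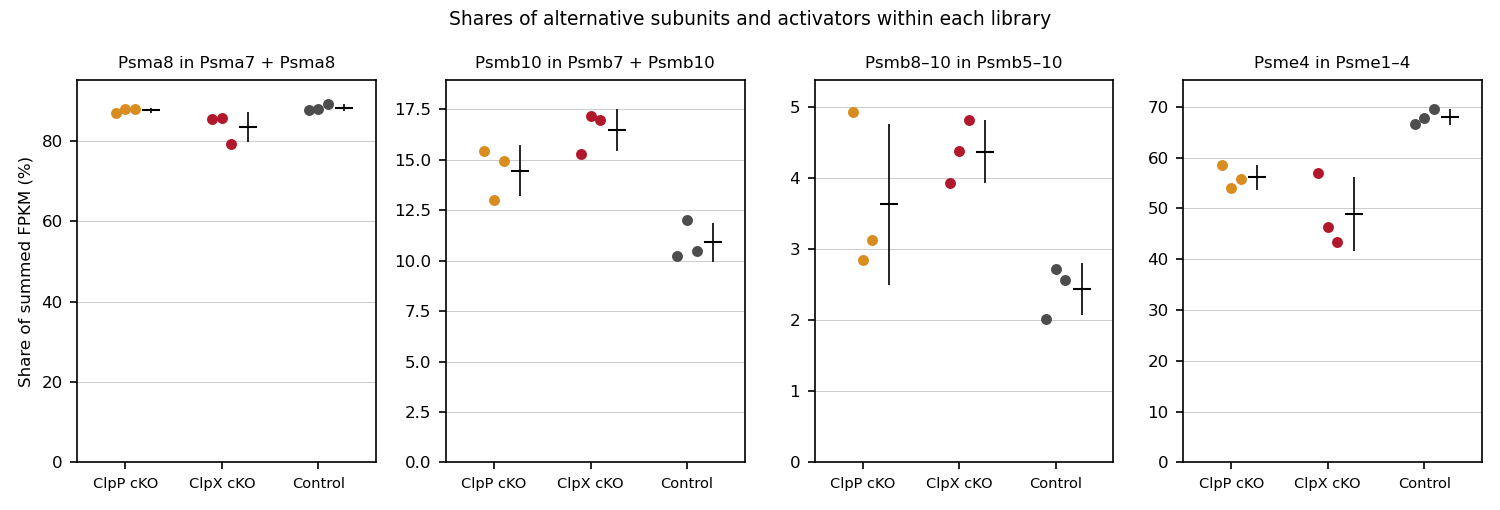
Share of summed FPKM, in percent, of Psma8, Psmb10, Psmb8 to Psmb10 and Psme4 within the set of genes named above each panel, with 1 point per library and the mean ± SD of 3 libraries beside each group. Psme4 averages 56.1% in ClpP cKO, 48.9% in ClpX cKO and 68.0% in Control libraries, with no overlap between either knockout and Control.

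Of the 6 ATPases that form the base of the 19S cap, Psmc2 and Psmc3 fell in both knockouts and Psmc4 and Psmc6 rose in ClpX cKO. Psmc2 had 46.3, 44.6 and 45.2 FPKM in ClpP cKO, 42.8, 34.3 and 34.6 in ClpX cKO, and 63.1, 65.9 and 58.6 in Control libraries. The groups did not overlap, and ClpX cKO 1 lay nearer to ClpP cKO than to the other ClpX cKO libraries. The change was -0.45 ± 0.09 in ClpP cKO (limma adjusted p = 0.01) and -0.74 ± 0.09 in ClpX cKO (limma adjusted p = 0.00047), and after quantile normalization -0.15 in ClpP cKO, no longer called (limma adjusted p = 0.136), and -0.31 in ClpX cKO. Psmc3 had 176, 177 and 174 FPKM in ClpP cKO, 177, 149.9 and 151 in ClpX cKO, and 232, 234 and 229 in Control libraries. ClpX cKO 1 was level with the ClpP cKO libraries, and no knockout library reached a Control one. Psmc3 changed by -0.40 in ClpP cKO and -0.54 in ClpX cKO, but under quantile normalization by 0.06 in ClpP cKO and 0.05 in ClpX cKO, with no call. Psmc3 overlaps Slc39a13, a gene at 6.23 FPKM, on the opposite strand.

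The remaining ATPases moved little or upward. Psmc4 changed by 0.21 in ClpP cKO, which was not called, and rose by 0.30 in ClpX cKO. Psmc6 changed by 0.24 in ClpP cKO, not called, and rose by 0.28 in ClpX cKO. Psmc1 changed by 0.06 in ClpP cKO and 0.12 in ClpX cKO and was not called. Psmc5 changed by -0.08 in ClpP cKO and -0.06 in ClpX cKO and was not called. The calls of Psmc4 and of Psmc6 in ClpX cKO were each lost on leaving out ClpX cKO 2, ClpX cKO 3 or Control 1, that of Psmc4 also without Control 3 (highest adjusted p = 0.0731) and that of Psmc6 also without Control 2 (highest adjusted p = 0.0829).

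The non-ATPase base subunits held Psmd1 and Psmd2, the large scaffolds that receive ubiquitin-like domains, and Psmd4, a ubiquitin receptor. Psmd2 averaged 139.6 FPKM in ClpP cKO, 137 in ClpX cKO and 149.6 in Control libraries, and its changes of -0.10 in ClpP cKO and -0.12 in ClpX cKO were not called although no knockout library reached the lowest Control one. Psmd1 rose by 0.25 in ClpX cKO and changed by 0.14 in ClpP cKO, not called. The call of Psmd1 was lost without ClpX cKO 3, without Control 1 and with the 6 compared libraries alone (highest adjusted p = 0.0849). Psmd4 changed by -0.07 in ClpP cKO and -0.03 in ClpX cKO, with no call.

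In the lid, which holds the deubiquitinase Psmd14, 1 of 8 genes fell in each knockout and 2 rose in ClpX cKO. Of all genes tested, 24.0% were lower in ClpP cKO and 33.5% in ClpX cKO, where 32.1% were higher. Psmd8 had 81.8, 81.6 and 80.3 FPKM in ClpP cKO, 76.2, 72.5 and 70.55 in ClpX cKO, and 97.5, 102 and 94.3 in Control libraries. The 3 groups were fully apart in the same order as for Psma6. The change was -0.27 ± 0.06 in ClpP cKO (limma adjusted p = 0.012) and -0.42 ± 0.06 in ClpX cKO (limma adjusted p = 0.00065), but 0.10 in ClpP cKO and 0.09 in ClpX cKO under quantile normalization, with no call. In ClpP cKO the call was also lost after scaling to each library's own total (-0.08, limma adjusted p = 0.232). Psmd14 rose by 0.34 in ClpX cKO (highest adjusted p = 0.0515, without Control 1) and changed by 0.19 in ClpP cKO, not called.

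Psmd3 was called higher in ClpX cKO at 0.17 ± 0.06 (limma adjusted p = 0.046), a call lost in 11 of 20 other settings, 8 of which leave out 1 library. Those were each of ClpP cKO 1 to 3, Control 1 to 3, ClpX cKO 2 and ClpX cKO 3, and the highest adjusted p was 0.152. The other lid genes, Psmd6, Psmd7, Psmd11, Psmd12 and Psmd13, stood between 12.6 and 37.1 FPKM in Control libraries and were not called in either knockout. Psmd13 overlaps Sirt3, a gene at 10.1 FPKM, on the opposite strand.

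The chaperones that assemble the base are bound before the cap is complete and are not part of the finished particle. Psmd5 had 3.51, 3.65 and 3.41 FPKM in ClpP cKO, 4.47, 4.38 and 4.67 in ClpX cKO, and 2.77, 2.73 and 2.62 in Control libraries. Its groups were narrow and fully apart, and it rose by 0.29 ± 0.07 in ClpP cKO (limma adjusted p = 0.015, but 0.0559 without ClpP cKO 2) and by 0.57 ± 0.07 in ClpX cKO (limma adjusted p = 0.00047). Psmd9, at -0.01 in ClpP cKO and 0.17 in ClpX cKO, and Psmd10, at -0.09 in both, were not called.

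The activators moved in opposite directions. Psme4, which opens the core for ubiquitin-independent degradation and is known in mouse testis for its part in histone loss, had 75.8, 65.0 and 69.3 FPKM in ClpP cKO, 72.2, 51.0 and 49.9 in ClpX cKO, and 108, 119 and 108 in Control libraries. Every knockout library lay well below Control, and ClpX cKO 1 fell within the ClpP cKO range. Psme4 changed by -0.67 ± 0.14 in ClpP cKO (limma adjusted p = 0.01) and by -0.96 ± 0.14 in ClpX cKO (limma adjusted p = 0.00063). After quantile normalization it changed by -0.28 in ClpP cKO, no longer called (limma adjusted p = 0.0746), and by -0.47 in ClpX cKO. It lies on chromosome 11 at 30771726 to 30880361 (GRCm38, plus strand).

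Psme1 and Psme2 encode the ring of the interferon-inducible activator PA28. Psme1 had 7.16, 7.86 and 8.18 FPKM in ClpP cKO, 8.84, 10.6 and 12.3 in ClpX cKO, and 5.06, 5.81 and 4.85 in Control libraries. Psme2 had 3.55, 5.65 and 5.63 FPKM in ClpP cKO, 5.58, 6.06 and 9.44 in ClpX cKO, and 2.93, 2.15 and 2.83 in Control libraries. All 6 knockout libraries exceeded Control for both genes, with ClpX cKO 3 highest for each. Psme1 rose by 0.49 ± 0.12 in ClpP cKO (limma adjusted p = 0.014, but 0.0509 without ClpP cKO 3) and by 0.89 ± 0.12 in ClpX cKO (limma adjusted p = 0.00051). Psme2 rose by 0.69 ± 0.21 in ClpP cKO (limma adjusted p = 0.028) and by 1.12 ± 0.21 in ClpX cKO (limma adjusted p = 0.0019), and its ClpP cKO call was lost without ClpP cKO 2, ClpP cKO 3, Control 1, Control 2 or Control 3 (highest adjusted p = 0.0937).

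Reads of Psme2 can be shared with Psme2b, a protein-coding copy that matches 99.4% of 794 bases. Psme2b averaged 6.74 FPKM in ClpP cKO, 10.2 in ClpX cKO and 6.93 in Control libraries, and was called higher in ClpX cKO alone (0.50, limma adjusted p = 0.038). How the counting divided reads between the copies is not given in the sources used here. Across the 44 genes, 9 had such a copy at another place in the genome, of at least 95% identity over at least 200 bases, and for 7 of these the copy had a mean FPKM of at least 1. Genes whose spans overlap a member were not counted as copies.

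Psme3, which caps nuclear proteasomes, was not called, with changes of -0.08 in both knockouts. Psme4 made up a smaller share of the 4 activator genes, at 58.6%, 54.0% and 55.7% of their FPKM in ClpP cKO, 57.0%, 46.3% and 43.3% in ClpX cKO, and 66.7%, 67.7% and 69.6% in Control libraries. Neither knockout overlapped Control, and ClpX cKO 1 lay among the ClpP cKO libraries. The difference from Control was -11.9 percentage points in ClpP cKO and -19.1 in ClpX cKO. Each reached the smallest exact permutation p of 0.1 (adjusted p = 0.164). Counted as reads, the Psme4 share averaged 79.6% in ClpP cKO, 74.7% in ClpX cKO and 86.35% in Control libraries.

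Psmf1 (PI31), which inhibits the core in vitro and links proteasomes to motor proteins, fell furthest of all members. It had 31.0, 24.0 and 27.5 FPKM in ClpP cKO, 21.1, 14.9 and 15.1 in ClpX cKO, and 56.0, 62.6 and 37.9 in Control libraries. The 3 groups were apart, although Control 3 lay nearer to ClpP cKO 1 than to Control 2. The change was -0.88 ± 0.20 in ClpP cKO (limma adjusted p = 0.012) and -1.55 ± 0.20 in ClpX cKO (limma adjusted p = 0.00049). It was called under each of the 20 other settings in both comparisons.

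**Figure D3:**
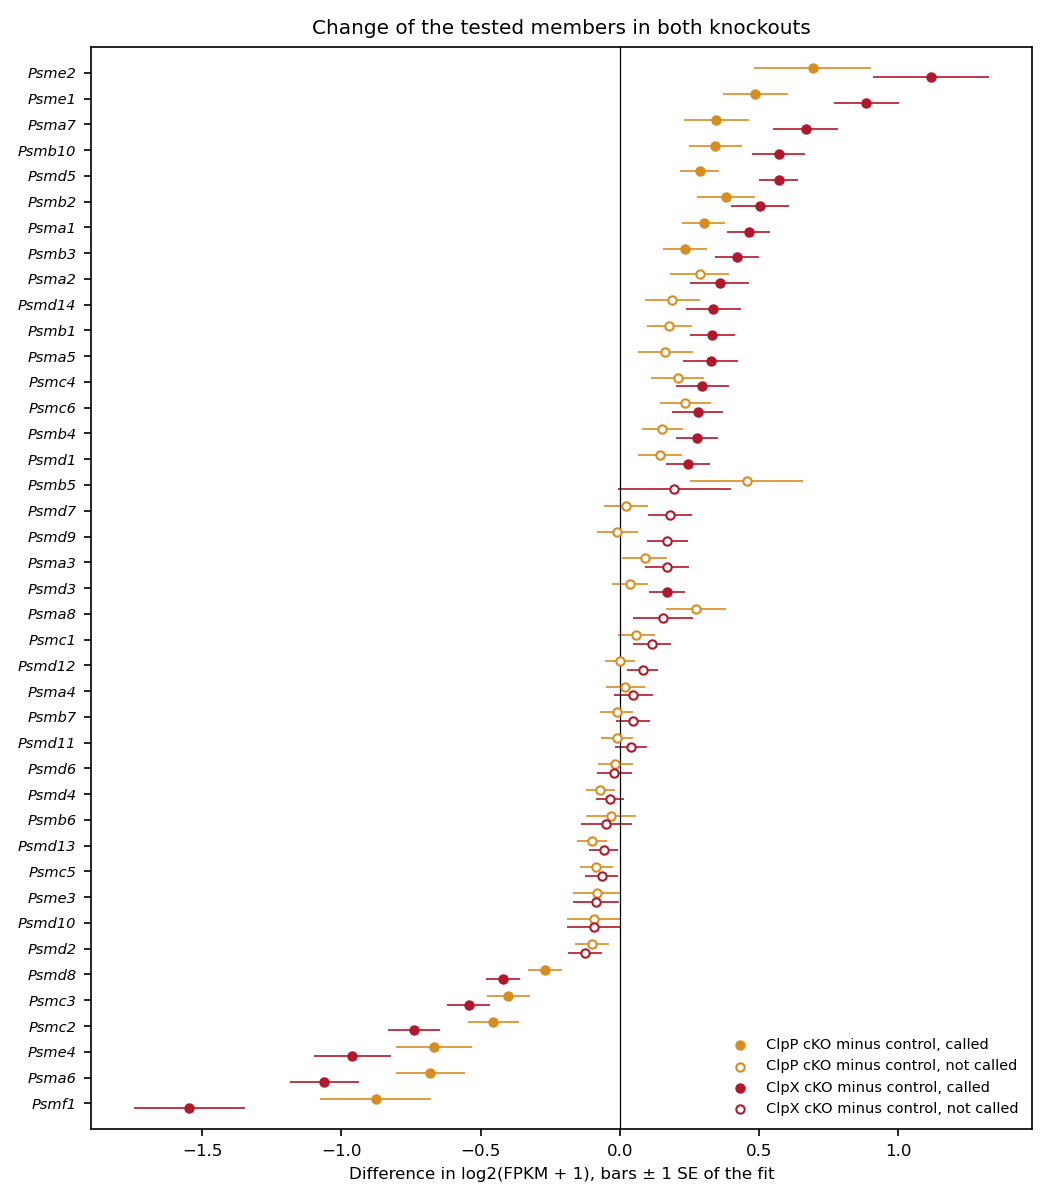
Difference in log2(FPKM + 1) between each knockout and Control for the 41 tested genes, ordered by the change in ClpX cKO, with bars of ± 1 SE of the fit and filled points for calls at an adjusted p under 0.05. The ClpX cKO points run from -1.55 for Psmf1 to 1.12 for Psme2, and the 6 genes at the bottom are filled in both knockouts.

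The direction of small changes depends on how libraries are scaled. The deposited values carry a factor between libraries: their per-million denominator was 1.05 times the library's own gene reads in ClpP cKO, 1.07 in ClpX cKO and 0.92 in Control. Scaling each library to its own total shifts the median of all genes to 0.16 in ClpP cKO and 0.18 in ClpX cKO, and the members' median to 0.21 in ClpP cKO and 0.38 in ClpX cKO. Of the 27 members with a positive change in ClpX cKO, all 27 kept that sign under 5 scalings and 17 were called under each. Of the 14 with a negative change 4 kept it, and these 4, Psmf1, Psma6, Psme4 and Psmc2, were called under each. In ClpP cKO 23 of 24 positive and 4 of 17 negative changes kept their sign, and of the negative ones 1, Psmf1, was called under each.

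The share of members called higher exceeded that of protein-coding genes in both knockouts under 2 of these scalings. After quantile normalization 43.9% of the members were higher in ClpP cKO, beside 22.6% of all genes tested and 28.3% of protein-coding ones, and 78.0% in ClpX cKO, beside 36.5% of all and 45.5% of protein-coding genes. After scaling to each library's own total 53.7% of the members were higher in ClpP cKO, beside 34.7% of all and 42.7% of protein-coding genes, and 73.2% in ClpX cKO, beside 42.7% of all and 52.4% of protein-coding genes. Quantile normalization kept the calls of the 8 genes higher in ClpP cKO and the 17 higher in ClpX cKO, and added 10 in ClpP cKO and 15 in ClpX cKO. The catalytic genes Psmb5, Psmb6 and Psmb7 and the ATPases Psmc1 and Psmc5 were among those added in ClpX cKO. Which scaling is nearer to the amounts in the cells was not tested.

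The number of higher calls in ClpP cKO fell when a library of either group was left out, among the members and among all genes tested. The 8 calls (19.5% of the members) became 5 (12.2%) without ClpP cKO 1, 2 (4.88%) without ClpP cKO 2, 1 (2.44%) without ClpP cKO 3, 2 (4.88%) without Control 1, 3 (7.32%) without Control 2 and 4 (9.76%) without Control 3. Over all genes the share called higher was 17.3% without ClpP cKO 1, 9.23% without ClpP cKO 2, 10.3% without ClpP cKO 3, 11.1% without Control 1, 12.8% without Control 2 and 15.6% without Control 3, against 20.7% with all libraries. The changes themselves moved less, and over the 8 genes and 9 such fits they stayed between 0.82 and 1.26 times the change with all libraries. The 17 calls in ClpX cKO ranged from 11 without Control 1 (26.8%, beside 28.3% of all genes) to 19 without ClpX cKO 1 (46.3%, beside 33.7%). The 6 lower genes (14.6%) were called in every fit that left out 1 library, in both comparisons, beside 11.7% to 26.8% of all genes in ClpP cKO and 29.4% to 34.5% in ClpX cKO. In ClpP cKO the share of all genes called lower was under that of the members without ClpP cKO 2, ClpP cKO 3 or Control 1.

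Between the knockouts, 0 of the 41 tested genes differed by limma, where 0.104% of all genes tested were called. At an unadjusted p under 0.05, 10 of the 41 members (24.4%) passed, beside 27.8% of all genes tested, and limma voom on recovered reads also called 0. The largest differences, ClpX cKO minus ClpP cKO, were -0.67 ± 0.20 for Psmf1, 0.42 ± 0.21 for Psme2, 0.40 ± 0.12 for Psme1 and -0.38 ± 0.12 for Psma6. Without ClpX cKO 1, 7 of the 41 were called higher and 6 lower in ClpX cKO, beside 11.9% and 15.6% of all genes tested, whose calls then numbered 4758, against 18 with all libraries. The 6 lower were the same that fell in both knockouts, led by Psmf1 at -0.82, and the 7 higher were Psme1 (0.51), Psma7 (0.45), Psmb10, Psmd5, Psmb3, Psma1 and Psmd3. All 13 had been called in the same direction between ClpX cKO and Control. Both comparisons share the ClpX cKO libraries that remain without ClpX cKO 1, so this agreement is not independent. How often all genes tested agree in this way was not computed. Without ClpX cKO 1 and Control 3, 5 were higher (12.2%, beside 12.6% of all genes tested) and 6 lower (14.6%, beside 17.2%).

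Subunit levels lay closer together in the knockouts on the deposited scale. A single factor per library leaves the measures below unchanged, and they were not computed after quantile normalization. Over the 14 subunits of the constitutive 20S core, Psma8 and the immune forms left out, the SD of log2 FPKM between genes was 1.01 ± 0.02 in ClpP cKO, 0.88 ± 0.06 in ClpX cKO and 1.20 ± 0.04 in Control libraries (SD, n = 3 each). The highest subunit, which was Psma6 in every library, stood at 5.22 times the median subunit in ClpP cKO, 3.87 times in ClpX cKO and 8.88 times in Control libraries. Over 17 subunits of the 19S cap the SD between genes was 1.10 ± 0.01 in ClpP cKO, 1.04 ± 0.05 in ClpX cKO and 1.25 ± 0.02 in Control libraries. The highest of these was Psmc3 in every library. Psma6 and Psmc3 are among the genes called lower in both knockouts, so these measures partly restate those falls. The SD was not computed without them. No knockout library overlapped Control on either measure of SD, and ClpX cKO 1 was the least even of its group in both.

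The same pattern appears as a relation across genes. The Control level of the 41 tested genes and their difference between ClpX cKO and ClpP cKO, which do not share libraries, had a Pearson r of -0.71 and a Spearman rho of -0.79. Without Psme2 and Psmb10, the genes at the low end, r was -0.68, and without the 6 genes that fell it was -0.70 over 35 genes. The points are genes of the same libraries and are not independent replicates. The relation was computed on the deposited scale alone, and not over all genes. The median difference over all genes tested was -0.01, and -0.03 at a mean FPKM of at least 5. Under quantile normalization the difference was -0.004 for Psmc3 (against -0.14) and 0.10 for Psmd2 (against -0.02). It hardly moved for Psmf1 (-0.65 against -0.67) and Psmd5 (0.29 against 0.28), so the relation may depend on the scaling.

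**Figure D4:**
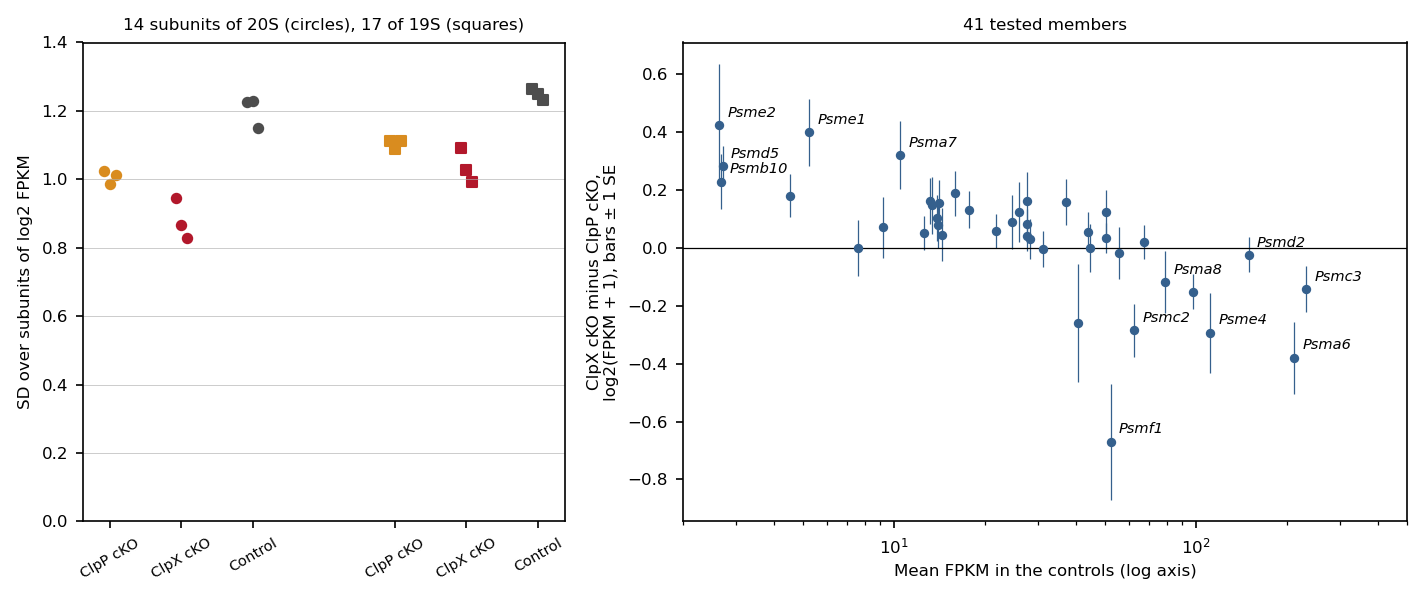
Left, SD over subunits of log2 FPKM in each library for 14 subunits of the 20S core (circles) and 17 of the 19S cap (squares); right, difference between ClpX cKO and ClpP cKO against the mean Control FPKM (log axis) of the 41 tested genes, with bars of ± 1 SE. Control libraries have the highest SD on the left, and on the right the genes with the highest Control levels tend to lie below 0 and those with the lowest above it.

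Promoter windows from RefSeq (GRCm38.p6, 250 bases before to 50 after the annotated start) were matched for 37 of the 44 genes, in 40 windows. Their median GC content was 57.3%, beside 52.7% over all 32851 windows. Those of Psmf1, Psma6 and Psme4, the 3 genes that fell furthest in ClpX cKO, and of Psme2, Psme1 and Psma7, the 3 that rose furthest, are printed 5′ to 3′ on the strand of the gene so that both directions can be read side by side. The windows are chr2:151741261-151741560 for Psmf1 (minus strand), chr12:55383972-55384271 and chr12:55398575-55398874 for the starts of Psma6 (plus strand), chr11:30771525-30771824 for Psme4 (plus strand), chr14:55590972-55591271 for Psme2 (minus strand), chr14:55578244-55578543 for Psme1 (plus strand) and chr2:180042415-180042714 for Psma7 (minus strand). Psme2 has another window, which overlaps this one and is not printed. Capitals mark matches on either strand to the antioxidant response element TGANNNNGC bound by Nfe2l1 and Nfe2l2, the CCAAT box CCAAT bound by NF-Y, the GC box GGGCGG and the interferon-stimulated response element, a pair of GAAA blocks with any 2 bases between them.
Psmf1: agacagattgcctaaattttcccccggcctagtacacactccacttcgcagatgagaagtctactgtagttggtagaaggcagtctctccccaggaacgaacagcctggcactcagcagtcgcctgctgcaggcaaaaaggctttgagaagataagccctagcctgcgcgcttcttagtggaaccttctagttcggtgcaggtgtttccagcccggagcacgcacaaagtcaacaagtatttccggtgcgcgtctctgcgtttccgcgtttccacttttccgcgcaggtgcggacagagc
Psma6, upstream start: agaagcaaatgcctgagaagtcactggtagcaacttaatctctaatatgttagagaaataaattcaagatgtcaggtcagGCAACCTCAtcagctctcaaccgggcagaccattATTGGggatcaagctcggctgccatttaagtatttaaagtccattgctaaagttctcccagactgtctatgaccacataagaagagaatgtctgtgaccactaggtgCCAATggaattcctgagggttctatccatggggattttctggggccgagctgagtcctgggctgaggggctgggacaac
Psma6, downstream start: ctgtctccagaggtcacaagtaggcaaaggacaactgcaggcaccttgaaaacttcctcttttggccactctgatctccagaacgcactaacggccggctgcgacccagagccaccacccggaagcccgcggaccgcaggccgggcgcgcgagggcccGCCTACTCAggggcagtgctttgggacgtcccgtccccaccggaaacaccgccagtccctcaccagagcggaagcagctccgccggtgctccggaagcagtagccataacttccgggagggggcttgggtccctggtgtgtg
Psme4: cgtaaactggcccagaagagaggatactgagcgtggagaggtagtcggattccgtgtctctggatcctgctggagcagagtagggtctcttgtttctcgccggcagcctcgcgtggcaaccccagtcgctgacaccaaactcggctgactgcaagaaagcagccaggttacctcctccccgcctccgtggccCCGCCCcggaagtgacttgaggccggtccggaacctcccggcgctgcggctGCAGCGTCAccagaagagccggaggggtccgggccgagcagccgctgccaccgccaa
Psme2: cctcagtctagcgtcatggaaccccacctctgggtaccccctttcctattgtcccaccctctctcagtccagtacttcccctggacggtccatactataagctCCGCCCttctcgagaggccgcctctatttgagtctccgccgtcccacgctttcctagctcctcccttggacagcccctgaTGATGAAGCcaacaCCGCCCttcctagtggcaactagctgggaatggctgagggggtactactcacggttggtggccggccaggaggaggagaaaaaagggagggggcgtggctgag
Psme1: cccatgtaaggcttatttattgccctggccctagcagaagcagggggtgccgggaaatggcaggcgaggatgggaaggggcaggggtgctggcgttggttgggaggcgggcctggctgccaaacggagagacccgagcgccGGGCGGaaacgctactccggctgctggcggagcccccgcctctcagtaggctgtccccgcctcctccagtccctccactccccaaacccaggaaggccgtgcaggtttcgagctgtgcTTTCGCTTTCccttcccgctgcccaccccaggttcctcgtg
Psma7: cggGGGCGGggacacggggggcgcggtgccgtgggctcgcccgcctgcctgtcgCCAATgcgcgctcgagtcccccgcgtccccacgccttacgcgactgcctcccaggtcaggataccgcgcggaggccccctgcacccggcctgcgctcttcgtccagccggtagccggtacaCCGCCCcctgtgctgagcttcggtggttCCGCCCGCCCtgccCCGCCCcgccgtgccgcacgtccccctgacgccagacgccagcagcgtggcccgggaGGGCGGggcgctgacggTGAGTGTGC

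Psma6 has windows for a pair of starts, with an antioxidant response element letter match in each and CCAAT boxes in the upstream window alone. The Psmf1 window holds none of the letters searched, and the Psme2 window holds an antioxidant response element match and GC boxes. The Psma7 window holds several GC boxes, some of which overlap, and the Psme1 window holds the interferon-stimulated match just after the start. Over the members with a window, 21 of 37 (56.8%) held the antioxidant response element letters, against 45.0% of all 27025 genes. They were present in 8 of 14 genes higher in ClpX cKO, 4 of 5 lower and 6 of 15 not called. The GC box was found in 22 of 37 members (59.5%) and 38.2% of all genes, in 10 of 14 higher, 2 of 5 lower and 9 of 15 not called. CCAAT was found in 14 of 37 members (37.8%) and 41.1% of all genes. The interferon-stimulated letters were found in 4 of 37 (10.8%) and 3.99% of all genes, the interferon-gamma activated letters TTCNNNGAA in 2 of 37 (5.41%) and 9.55%, and the cAMP response letters TGACGTCA in 0 of 37 and 2.03%. A match is a description of the letters and not of binding.

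Genes that act on subunit transcription moved in both directions. Nfe2l1, the factor known to raise subunit transcription when proteasome activity is short, averaged 32.9 FPKM in ClpX cKO and 20.1 FPKM in Control libraries, a rise of 0.68 ± 0.09 (limma adjusted p = 0.0005). In ClpP cKO Nfe2l1 had 24.15, 25.95 and 25.4 FPKM and was called higher as well, a call lost in 5 of 20 other settings. Ddi2, the protease that cleaves Nfe2l1, rose by 0.51 in ClpP cKO and 0.60 in ClpX cKO. Ngly1, which removes its sugars, averaged 21.0 FPKM in ClpP cKO, 16.1 in ClpX cKO and 36.5 in Control libraries and fell by 0.78 in ClpP cKO and 1.16 in ClpX cKO. Of the 9 tested genes of this list, 4 were called higher and 1 lower in ClpP cKO, beside 20.7% and 24.0% of all genes tested. In ClpX cKO 7 were higher and 1 lower, beside 32.1% and 33.5%. The median change of the list was 0.28 in ClpP cKO and 0.50 in ClpX cKO. Nfyc, a subunit of NF-Y, rose by 0.43 in ClpP cKO, a call lost without ClpP cKO 2. It was called higher in ClpX cKO too, and in all 20 other settings there.

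Among 20 tested assembly and associated factors, 5 were higher and 4 lower in ClpP cKO, beside 20.7% and 24.0% of all genes tested. In ClpX cKO 9 were higher and 5 lower, beside 32.1% and 33.5%. The medians were 0.05 in ClpP cKO and 0.07 in ClpX cKO. Ddi1, a shuttle-type aspartic protease gene with strong testis expression, averaged 9.61 FPKM in ClpP cKO, 6.03 in ClpX cKO and 21.1 in Control libraries, and fell by 1.05 in ClpP cKO and 1.67 in ClpX cKO. Rad23b, which carries ubiquitinated proteins to the cap, fell by 0.58 in ClpP cKO and 0.59 in ClpX cKO. The shuttle gene Ubqln2 rose by 0.98 in ClpX cKO, and Psmg4, a chaperone of core assembly, by 0.66 in ClpP cKO. Each was called higher in both knockouts, and in all 20 other settings. Ubqln2 had 14.1, 13.6 and 13.8 FPKM in ClpP cKO and 9.44, 9.55 and 8.775 in Control libraries. Psmg4 had 11.55, 13.5 and 14.8 FPKM in ClpX cKO and 8.3, 8.0 and 8.3 in Control libraries.

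Of 7 genes for ubiquitin and its E1 enzymes, 2 were higher and 3 lower in each knockout. All genes tested had 20.7% higher and 24.0% lower in ClpP cKO, and 32.1% and 33.5% in ClpX cKO. Ubb, a polyubiquitin gene, averaged 696 FPKM in ClpP cKO, 649 in ClpX cKO and 1018 in Control libraries, and fell by 0.54 ± 0.09 in ClpP cKO (limma adjusted p = 0.0086) and by 0.65 ± 0.09 in ClpX cKO (limma adjusted p = 0.00051). The E1 gene Uba6 rose by 0.49 in ClpP cKO and 0.72 in ClpX cKO. Uba1y, the Y-linked E1 copy known from mouse germ cells, rose by 0.38 in ClpP cKO and 0.67 in ClpX cKO. The list's median change was -0.09 in ClpP cKO and -0.04 in ClpX cKO.

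For the unfoldase p97 and its cofactors, 1 of 9 tested genes was higher and 2 lower in ClpP cKO. That stands beside 20.7% and 24.0% of all genes tested. In ClpX cKO 4 were higher and 3 lower, beside 32.1% and 33.5%. The medians were 0.04 in ClpP cKO and 0.21 in ClpX cKO. The cofactor genes Ubxn6 and Ufd1 fell by 0.56 and 0.29 in ClpP cKO and by 0.93 and 0.44 in ClpX cKO, and Nsfl1c rose by 0.46 in ClpP cKO and 0.63 in ClpX cKO. In ClpP cKO the call of Nsfl1c was lost without ClpP cKO 2, ClpP cKO 3 or Control 1, and that of Ufd1 in 10 of 20 other settings, among them the fits without ClpP cKO 2, ClpP cKO 3, ClpX cKO 2, ClpX cKO 3, Control 1 or Control 2. Of 9 tested genes for partners in class I antigen presentation, which the immunoproteasome supplies with peptides, 1 was higher in ClpP cKO and 6 in ClpX cKO. That stands beside 20.7% and 32.1% of all genes tested. None was lower in either, and the medians were 0.31 in ClpP cKO and 0.51 in ClpX cKO. The class I gene H2-D1 rose by 1.23 ± 0.22 in ClpX cKO (limma adjusted p = 0.0016) and Erap1, which trims the peptides, by 0.64. Canx, a chaperone of class I chains, rose by 0.22 in ClpP cKO and 0.33 in ClpX cKO, and its ClpP cKO call was lost on leaving out any library of ClpP cKO or Control. No gene of any of these 5 lists was called between ClpX cKO and ClpP cKO by limma or by limma voom, and 15 of 54 (27.8%) passed at an unadjusted p under 0.05, beside 27.8% of all genes tested.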

How the data were processed

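RNA was measured by sequencing in 9 libraries of mouse male germ cells, 3 per group. Per the labels' protocols, libraries were made from 1.3 ug of total RNA with the SMARTER mRNA-Seq kit. The authors deposited FPKM per gene for all libraries in a single table, with a gene length in bases as a column of another unit. The genome build is GRCm38 (mm10) per the submitters' processing notes. The aligner, the counter, their versions and the strand setting are not given in the sources used here.

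The deposited FPKM values multiplied by gene length came in whole multiples of 1 unit in each library (tolerance 0.01 of that unit), from which the reads of every gene were recovered. The test was limma 3.58.1 in R 4.3.3 on log2(FPKM + 1), over genes whose mean FPKM was 1 or more. A single model held all 9 libraries (6 residual degrees of freedom, trended prior variance), and a call is a two-sided Benjamini-Hochberg adjusted p under 0.05 over all genes tested. Changes are on this log2 scale, which understates those of low genes. Errors are the SE of a change or the SD over libraries. Shares within a library were compared with an exact permutation test over libraries, two-sided.

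Members are the protein-coding rows that match the symbol rule. Always given with every library are Psma8, Psma7, Psmb8, Psmb9, Psmb10, Psme4 and the 4 largest called increases and decreases per comparison. Genes of the associated lists are named for the 3 smallest adjusted p among those called, per list and comparison, and other genes were named after their values were seen. The members and lists were chosen with earlier results of these data known. The fitting code was tested on simulated data. Alternatives changed the pseudocount (0.1), the filter (none, or a mean FPKM of at least 5), the scaling between libraries, the libraries fitted, a replicate block, and the test (limma voom on recovered reads, with TMM factors). Deviations from the group means correlated at -0.07 to 0.23 between samples with the same number, and were negative only for ClpP cKO 3 with Control 3. Between samples with different numbers they correlated at -0.24 to 0.11. These ranges overlap and the labels name no pairing, so the numbers were not taken to pair libraries. Whether samples with the same number share a batch was not tested. Near-identical copies were searched with BLAST 2.17.0 at a minimum of 95% identity over 200 bases of GENCODE transcripts. Promoter sequences are from RefSeq.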

Additional observations from a re-analysis of the deposited data

How the results depend on the processing

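The 6 genes lower in both knockouts were called under each alternative but quantile normalization and, in ClpP cKO, own-total scaling, whereas the counts of higher genes moved. In ClpP cKO the 8 higher members (19.5%, beside 20.7% of all genes) became 5 with no filter, 18 (43.9%, beside 22.6%) after quantile normalization, 22 (53.7%, beside 34.7%) after scaling to each library's own total and 1 to 11 on leaving out 1 library, and the 6 lower became 1 after quantile normalization and 5 after own-total scaling. Leaving out 1 library gave 3617 to 8729 calls over all genes, against 7722. In ClpX cKO the 6 lower members (14.6%, beside 33.5%) became 4 (9.76%, beside 27.2%) after quantile normalization. With no filter 6 were lower (13.6%, beside 15.3%) and 16 higher (36.4%, beside 13.9%). The 17 higher members (41.5%, beside 32.1%) became 32 (78.0%, beside 36.5%) after quantile normalization and 30 (73.2%, beside 42.7%) after own-total scaling. On leaving out 1 library they became 11 to 19. Calls over all genes fell to 6871 at a mean FPKM of at least 5, where fewer genes were tested. The median member change was 0.24 in ClpP cKO and 0.39 in ClpX cKO after quantile normalization, and 0.21 in ClpP cKO and 0.38 in ClpX cKO after own-total scaling.

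Between ClpX cKO and ClpP cKO, leaving out 1 library gave 0 to 7 members higher and 0 to 6 lower. The 7 and 6 came without ClpX cKO 1 (17.1% and 14.6%, beside 11.9% and 15.6% of all genes). Leaving out Control 3 and ClpX cKO 1 gave 5 higher (12.2%, beside 12.6%) and 6 lower (14.6%, beside 17.2%). Calls over all genes, 18 in all, became 29 after quantile normalization, 42 with limma voom, 89 with the 6 compared libraries, 0 to 4758 on leaving out 1 library and 5149 without both. The median member change was 0.15 after quantile normalization. The cause of these shifts was not tested.

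With the replicate number as a block, 7 members were higher (17.1%, beside 20.7% of all genes) and 6 lower (14.6%, beside 24.7%) in ClpP cKO. In ClpX cKO 16 were higher (39.0%, beside 32%) and 6 lower (14.6%, beside 33.4%). Between the knockouts 0 were higher and 0 lower, and calls over all genes came to 1. Since the numbers are not shown to pair the libraries, these are given as values alone.

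Of the negative changes, 11 of 17 in ClpP cKO and 9 of 14 in ClpX cKO turned positive after quantile normalization. In both these were Psmc3 (0.058 in ClpP cKO and 0.054 in ClpX cKO), Psmb6 (0.27 and 0.37), Psmc5 (0.25 and 0.40), Psmd2 (0.34 and 0.44), Psmd4 (0.23 and 0.39), Psmd6 (0.20 and 0.29), Psmd8 (0.10 and 0.086), Psmd13 (0.072 and 0.20) and Psme3 (0.20 and 0.32), and in ClpP cKO also Psmb7 (0.13) and Psmd11 (0.036). Own-total scaling turned 8 of 14 positive in ClpX cKO, namely Psmb6 (0.17), Psmc5 (0.16), Psmd2 (0.10), Psmd4 (0.19), Psmd6 (0.20), Psmd10 (0.11), Psmd13 (0.16) and Psme3 (0.14), and 11 of 17 in ClpP cKO. The difference of ClpX cKO from ClpP cKO in the share of Psmb8 was 0.224 percentage points and ran from -0.143 without ClpP cKO 3 to 0.741 without ClpP cKO 1 on leaving out 1 library. In that of Psmb9 it was -0.246 and ran from -0.688 without ClpP cKO 2 to 0.531 without ClpP cKO 1. Of 2448 further values for single genes under an alternative, 2202 kept their direction and their status as called or not called. Another 70 kept the direction but lost the call, and 85 gained a call. The sign changed in 73 values with no call in either setting, and in 18 where either setting gave a call.

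Psmb8 and Psmb9 rest on at most 89 reads a library, which limits their precision, and intervals for shares of so few reads are not given.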
